A study of Mus musculus with 3 samples.

Results

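The complement genes C1qa, C1qb, C1qc, C3, C4b, Cfb, Cfp, C3ar1 and Fcna were followed in RNA-seq of Ly6G+ myeloid cells from mouse bone marrow (BM). They were chosen by gene symbol, with earlier results of these data known. All 9 were found among the 16072 named genes of the deposited table. The 3 libraries came from C57BL/6 mice, aged 6 to 10 weeks according to the methods, in which B16.F10 melanoma cells had been placed under the skin 1 week before an adeno-associated virus (AAV) was injected into muscle. In the AAV-Ctrl group (2 libraries) the vector was empty, and in the AAV-IL-27 group (1 library) it carried murine IL-27 under the CAG promoter, so that muscle rather than marrow was the injected site. Cells were taken 3 weeks after the vector. The study also calls these cells Gr-1+, and Gr-1 antibodies bind Ly6G and also Ly6C, an antigen that monocytes carry. The series text counts 4 mice, and a further column of values bearing an AAV-IL-27 name matched none of the listed samples and was not analysed here.

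Complement is a set of plasma and cell-surface proteins that coat microbes and dying cells for uptake. The classical pathway starts when C1q, built from equal numbers of A, B and C chains, binds antibody or an altered surface. In the lectin pathway ficolins and mannose-binding lectin bind sugars or acetyl groups instead, and the alternative pathway is driven by C3 and factor B and stabilised by properdin. All routes meet at C3, whose fragments act on receptors such as C3AR1. Liver makes most plasma complement, but C1q comes mainly from macrophages and dendritic cells, and neutrophils store properdin.

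Levels are given in FPKM (fragments scaled by transcript length and by the number of fragments mapped), so that genes can be set beside each other. A difference is the log2(FPKM + 1) value under AAV-IL-27 less the average of both AAV-Ctrl values, and this scale makes changes of low genes look smaller. Values set in a row of 3 follow the order AAV-Ctrl 1, AAV-Ctrl 2, AAV-IL-27. Genes at least 1 log2 unit below each AAV-Ctrl library were counted as lower, and those as far above each as higher, provided that their FPKM averaged 1 or more over the 3 libraries. With 1 AAV-IL-27 library that group has no replicate error, so no test was run and the difference between the AAV-Ctrl libraries stands beside each value. The table holds no counts, and the steps between low values gave an estimated depth of 19000000, 19400000 and 19200000 fragments. The 14 neutrophil markers were present in every library, with Ly6g at 712, 766 and 586 FPKM, and none of them differed by 1 log2 unit or more. Mpo (26.6, 32.1 and 35.4 FPKM) and Elane (17.95, 20.9 and 26.1 FPKM) were the least abundant of these markers.

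C1qa, C1qb, C1qc and Fcna were lower in the AAV-IL-27 library, at 13.2% to 31.4% of the AAV-Ctrl mean. C3 and Cfp, the most abundant of the 9 genes, were at 93.8% and 79.8%. C4b, C3ar1 and Cfb were near or under 1 FPKM in every library. Thus 4 of the 6 genes whose mean FPKM reached 1 were counted as lower and 0 as higher. Over the 9130 genes tested, 2.32% were lower and 0.307% higher by the same rule. These shares are a description and no test, since the 9 genes were chosen with earlier results known. C1qa, C1qb and C1qc also encode chains of the same protein and had similar values. The median difference was -1.73 over the 6 genes and -0.01 over all genes tested.

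**Figure D1:**
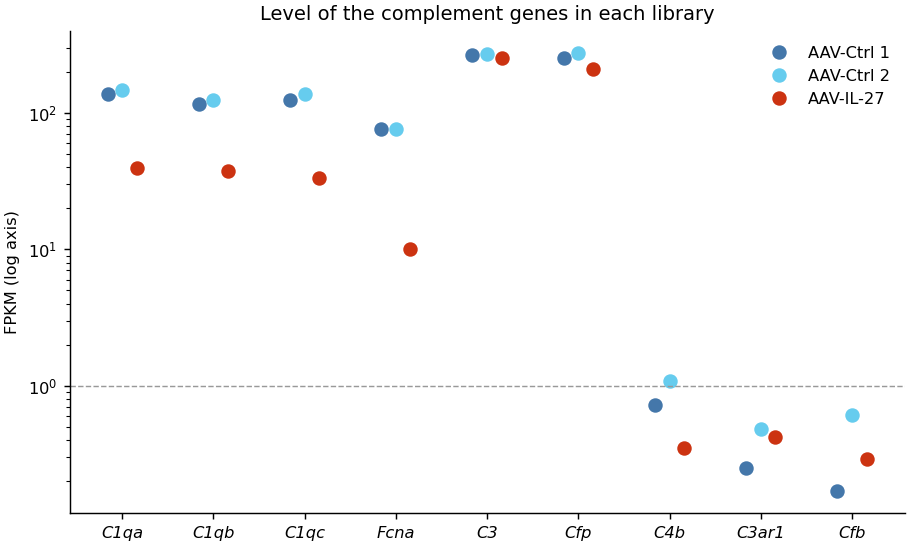
FPKM (log axis) of each of the 9 genes in each library, 1 point apiece, with a dashed line at 1 FPKM. The AAV-IL-27 point lies well below both AAV-Ctrl points for C1qa, C1qb, C1qc and Fcna, and close to them for C3 and Cfp, while C4b, C3ar1 and Cfb lie near or under 1 FPKM.

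The stretches of DNA just before the start of several of these genes are shown because 2 C1q genes and Fcna were lower while C3 was close to its AAV-Ctrl level. RefSeq entries (GRCm38.p6) were found for 6 of the 9 genes, C1qb, C1qc, Fcna, C3, C3ar1 and Cfp, and C1qa, C4b and Cfb had none. Each 250-base stretch was searched on both strands for GAGGAAG (the core of sites for the myeloid factor PU.1), TGCTGAC (part of the site of MAF factors), TTCNNNGAA (the GAS element of STAT factors), GAAANNGAA (the core of the interferon-stimulated response element) and TTNNGNAA (C/EBP). Capitals mark every match, overlapping or not, and bases that GENCODE M21 places inside the gene are not printed.

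C1qb, chr4:136886201-136886450, minus strand: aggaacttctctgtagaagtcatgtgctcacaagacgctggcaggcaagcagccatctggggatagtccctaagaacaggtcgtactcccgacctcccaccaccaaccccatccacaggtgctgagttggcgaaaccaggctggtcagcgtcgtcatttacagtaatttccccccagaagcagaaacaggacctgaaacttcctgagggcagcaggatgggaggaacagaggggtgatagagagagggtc
C1qc, chr4:136893066-136893164, minus strand: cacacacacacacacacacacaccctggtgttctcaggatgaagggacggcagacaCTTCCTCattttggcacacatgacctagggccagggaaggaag
Fcna, chr2:25628031-25628224, minus strand: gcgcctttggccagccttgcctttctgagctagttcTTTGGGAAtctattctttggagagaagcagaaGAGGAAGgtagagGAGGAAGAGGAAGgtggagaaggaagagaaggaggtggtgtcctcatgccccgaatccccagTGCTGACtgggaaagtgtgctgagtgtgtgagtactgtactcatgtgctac
C3, chr17:57228137-57228386, minus strand: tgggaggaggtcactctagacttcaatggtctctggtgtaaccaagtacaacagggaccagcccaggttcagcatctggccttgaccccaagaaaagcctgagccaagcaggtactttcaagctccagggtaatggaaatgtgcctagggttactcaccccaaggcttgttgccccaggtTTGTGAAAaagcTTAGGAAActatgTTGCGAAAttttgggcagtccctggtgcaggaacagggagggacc

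The stretch before Fcna held GAGGAAG at 3 places, of which 2 share a base, and the one before C1qc held it once, on the other strand. This motif was present in 10.6% of 32851 such stretches over all RefSeq genes. Fcna also held TGCTGAC once (3.81% of all stretches), and Fcna, C1qc and C3 held TTNNGNAA (36.8%) at 1, 1 and 3 places, the match of C1qc lying in the part not printed. No match to any of the 5 motifs was found before C1qb, Cfp or C3ar1. TTCNNNGAA (7.02%) and GAAANNGAA (7.13%) were in none of the 6 stretches. These matches describe letters only.

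The C1q genes encode the 3 chains of C1q and lie side by side on chromosome 4 (GRCm38, GENCODE M21), all on the minus strand: C1qb (NCBI Gene 12260) at chr4:136880129-136886187, C1qc (12262) at chr4:136889804-136893065 and C1qa (12259) at chr4:136895917-136898803. C1qa, for the A chain, had FPKM values of 138, 146 and 39.4, which gave a difference of -1.82. C1qb, for the B chain, was at 116, 124 and 37.6 FPKM, a difference of -1.65. C1qc, for the C chain, was at 124, 137 and 33.2 FPKM, a difference of -1.94. In each of these genes both AAV-Ctrl libraries were high and close together, and the AAV-IL-27 library lay below both.

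AAV-Ctrl 2 exceeded AAV-Ctrl 1 by 0.08, 0.10 and 0.14 log2 units for C1qa, C1qb and C1qc. Over all genes tested, the size of that difference had a median of 0.087 and a 99th percentile of 0.571, so each C1q difference was several times the spread between the AAV-Ctrl libraries. On the FPKM scale the AAV-Ctrl mean was 142 ± 5.80 (SD, n = 2) for C1qa, 120 ± 6.03 for C1qb and 130 ± 9.17 for C1qc, and it exceeded the AAV-IL-27 value 3.59-fold, 3.19-fold and 3.92-fold. An estimated 734 to 2742 fragments lay behind each C1qa value, 736 to 2453 behind C1qb and 723 to 3004 behind C1qc, so counting error was small beside these differences.

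The chains kept similar proportions. Summed over the chains, C1q was at 377, 407 and 110 FPKM, which left 28.1% of the AAV-Ctrl mean. C1qa made up 36.5%, 35.8% and 35.7% of that sum, C1qb 30.7%, 30.5% and 34.1%, and C1qc 32.8%, 33.6% and 30.1%. The share of C1qb was thus somewhat higher, and that of C1qc lower, under AAV-IL-27 than in both control libraries.

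Fcna (NCBI Gene 14133, chr2:25624666-25628030, minus strand) encodes ficolin A, a recognition molecule of the lectin pathway that is known from macrophages of spleen and liver. It had the largest difference of the 9 genes. Its FPKM was 76.3, 75.7 and 10.01, a difference of -2.81, while the AAV-Ctrl libraries lay -0.01 apart. The AAV-Ctrl mean of 76.0 ± 0.438 (SD, n = 2) exceeded the AAV-IL-27 value 7.59-fold. Only 9 of the 9130 genes tested had a lower log2 difference. Relative to the C1q genes, Fcna was lower still, at 13.2% of the AAV-Ctrl mean against 25.5% to 31.4%.

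Fcnb, for the related ficolin B of the myeloid lineage, was at 18.3, 21.4 and 15.3 FPKM, a difference of -0.35 against 0.21 between the AAV-Ctrl libraries. Fcna was therefore 4.17 and 3.55 times as abundant as Fcnb in the AAV-Ctrl libraries and 0.653 times as abundant in AAV-IL-27.

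**Figure D2:**
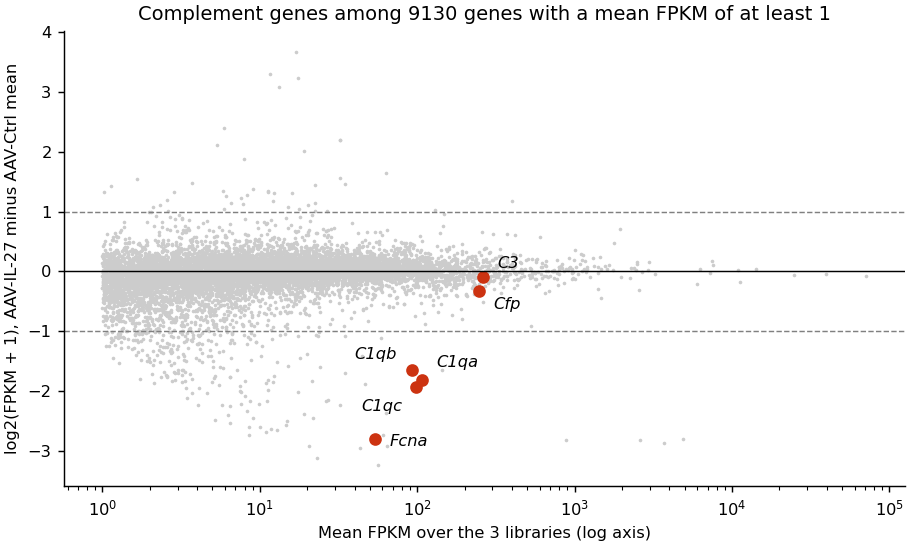
Difference in log2(FPKM + 1), AAV-IL-27 minus the AAV-Ctrl mean, against the mean FPKM over the 3 libraries (log axis) for 9130 genes (grey), with dashed lines at 1 log2 unit either way. The 6 complement genes whose mean FPKM reached 1 are in red, with Fcna at -2.81, the C1q genes between -1.94 and -1.65, Cfp at -0.32 and C3 at -0.09.

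C3 (NCBI Gene 12266, chr17:57203970-57228136, minus strand) encodes the component on which every activation route converges. By its mean over the 3 libraries it was the most abundant of the 9 genes, at 265, 270.3 and 251 FPKM. The AAV-IL-27 value lay below both, with a difference of -0.09 against 0.03 between the AAV-Ctrl libraries. A position below both was common, being shared by 3829 of the 9130 genes tested (41.9%).

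Cfp (NCBI Gene 18636, chrX:20925454-20931555, minus strand) encodes properdin, which stabilises the C3 convertase of the alternative pathway. It was at 253, 273 and 209.8 FPKM, a difference of -0.32 against 0.11 between the AAV-Ctrl libraries, short of the threshold of 1. C3 and Cfp had nearly equal levels in each library, with C3 at 1.05, 0.990 and 1.20 times Cfp. The sum of the C1q chains was 1.42 and 1.504 times C3 in the AAV-Ctrl libraries and 0.439 times C3 in AAV-IL-27. Of the summed FPKM of all 9 genes (972, 1028 and 582), C3 and Cfp took 53.3%, 52.9% and 79.2%.

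C4b, C3ar1 and Cfb had mean FPKM values under 1 and were left out of the counts. C4b (NCBI Gene 12268, chr17:34728380-34743882, minus strand) encodes C4, which C1s cleaves in the classical pathway. Its FPKM was 0.72, 1.08 and 0.35, a difference of -0.49 against 0.27 between the AAV-Ctrl libraries. These values correspond to an estimated 73, 111 and 36 fragments, and the 95% Poisson interval of the AAV-IL-27 library, from 25.2 to 49.8, did not reach those of AAV-Ctrl 1 (57.2 to 91.8) and AAV-Ctrl 2 (91.3 to 134). The intervals cover counting error only. C4a, a close relative nearby, was at 0.09, 0.07 and 0.16 FPKM, and fragments that fit both genes could have been given to either.

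Cfb (NCBI Gene 14962, chr17:34856374-34862518, minus strand) encodes factor B, the protease of the alternative pathway convertase, and was at 0.17, 0.61 and 0.29 FPKM. C3ar1 (NCBI Gene 12267, chr6:122847138-122856161, minus strand) encodes the receptor of the C3 fragment C3a and was at 0.25, 0.48 and 0.42 FPKM. For both genes the AAV-IL-27 value lay between the AAV-Ctrl values. Cfb rested on an estimated 9, 32 and 15 fragments and C3ar1 on 20, 39 and 34. The Poisson intervals of Cfb in AAV-Ctrl 1 (4.12 to 17.1) and AAV-Ctrl 2 (21.9 to 45.2) did not overlap. They rest on estimated fragments, for Cfb with the length of the longer of its 2 transcripts, and no test was run. Cfb adjoins C2, and whether fragments of C2 entered the Cfb values was not examined.

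By level, C3 came first in both AAV-Ctrl libraries together with Cfp, and their order differed between AAV-Ctrl 1 (C3 higher) and AAV-Ctrl 2 (Cfp higher). Below them followed C1qa, C1qc, C1qb and Fcna in that order in both AAV-Ctrl libraries, then C4b, and last C3ar1 and Cfb. In AAV-IL-27 the order was C3, Cfp, C1qa, C1qb, C1qc, Fcna, C3ar1, C4b and Cfb. The AAV-Ctrl ranges of C3 and Cfp overlapped, as did those of C1qc and C1qb, while those of C1qa (137.53 to 145.73) and C1qc (123.69 to 136.66) came close without overlapping. The AAV-IL-27 order rests on 1 library.

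Of 46 other complement genes looked up, 32 were in the table and 14 were not analysed here. A mean FPKM of at least 1 was reached by 16, of which 0 were lower and 0 higher by the rule that counted the C1q genes and Fcna, against 2.32% and 0.307% of all genes. Their median difference was -0.09, and they ranged from -0.90 to 0.74. Of the 16, 9 lay below both AAV-Ctrl libraries, 6 above both and 1 between them. The count depends on level, because the log2(FPKM + 1) scale shrinks changes of low genes. Serping1, Clu and C1qbp were at 28.8%, 40.1% and 44.4% of the AAV-Ctrl mean, beside a median of 90.6% over the 16.

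Among genes of the C1 complex and its control, C1ra, for a C1r protease, was at 2.79, 3.32 and 2.39 FPKM (-0.26). C1rl, for a C1r-like protease, was at 25.6, 26.6 and 25.4 FPKM (-0.04). Serping1, for the C1 inhibitor, was at 1.06, 1.58 and 0.38 FPKM (-0.74), and C1qbp, for a C1q-binding protein found mostly in mitochondria, was at 5.13, 5.04 and 2.26 FPKM (-0.90). The last pair lay below both AAV-Ctrl libraries without reaching the threshold, and with a pseudocount of 0.1 in place of 1 both passed it.

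Of the regulators, Cr1l (Crry, which restrains C3 convertases on rodent cells) had a difference of -0.02, Cd55 (decay-accelerating factor) of -0.25 and Cd46 of -0.14. Clu, for clusterin, was at 2.48, 3.55 and 1.21 FPKM (-0.85 against 0.39 between the AAV-Ctrl libraries), and it passed the threshold when AAV-Ctrl 1 was left out. Receptors spanned a wide range of levels. Itgam and Itgb2, whose products form complement receptor 3, were at 734 to 744 and 990 to 1043 FPKM over the libraries, with differences of 0.02 and 0.07. C5ar1, for the C5a receptor of neutrophils, had a difference of 0.21, C5ar2 of 0.12, Cd93 of 0.42 and Calr, for calreticulin, of -0.30. Itgax was at 17.3, 11.9 and 24.6 FPKM, a difference of 0.74 against -0.50 between the AAV-Ctrl libraries.

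The other 16 genes in the table had mean FPKM values under 1. They included Vsig4, a macrophage receptor for C3 fragments (1.61, 0.61 and 0.73 FPKM), Cd59a, an inhibitor of the membrane attack complex (1.26, 1.20 and 0.22 FPKM) and C2 (0.81, 0.66 and 0.30 FPKM). Colec11 was listed at 0 in all 3 libraries.

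**Figure D3:**
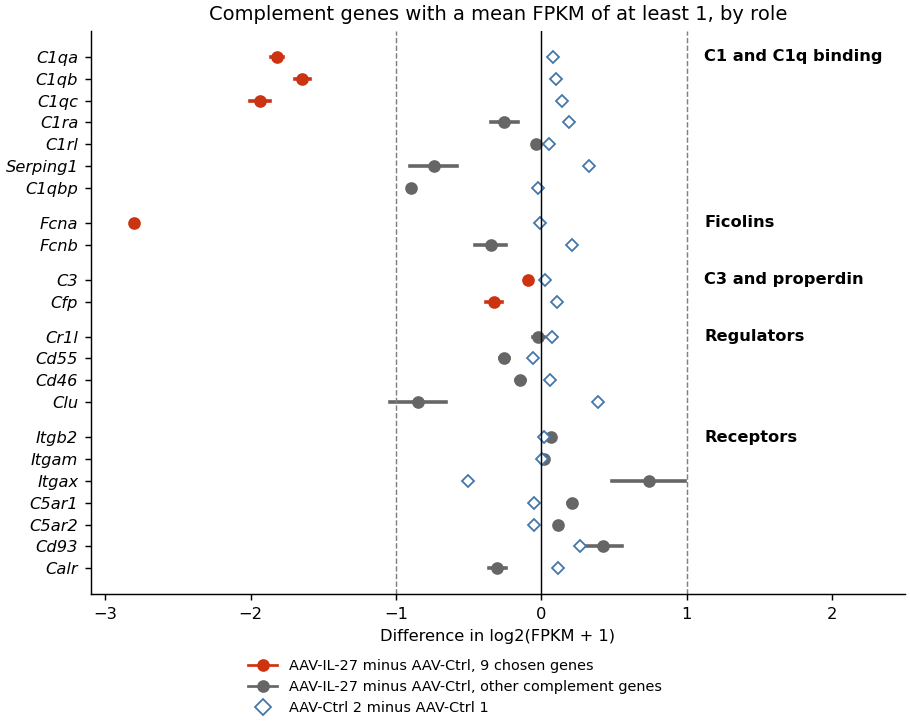
Difference in log2(FPKM + 1) for the 22 complement genes whose mean FPKM reached 1, grouped by role: filled points are AAV-IL-27 minus the AAV-Ctrl mean, bars span the differences from each AAV-Ctrl library, and open diamonds are AAV-Ctrl 2 minus AAV-Ctrl 1. C1qa, C1qb, C1qc and Fcna lie beyond the dashed line at -1, and the 16 other complement genes (grey points) lie between -0.90 and 0.74.

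Markers of several cell types other than neutrophils were lower in the same library. Of 19 macrophage markers, 18 had a mean FPKM of at least 1 and 12 of these were lower by the same rule, with a median difference of -1.40 and none listed at 0. Their summed FPKM was 1060 and 1021 in the AAV-Ctrl libraries and 556 in AAV-IL-27, or 53.4% of the AAV-Ctrl mean, beside 28.1% for C1q and 13.2% for Fcna. Taken gene by gene, the median of the 18 was 31.0% of the AAV-Ctrl mean. The 3 most abundant macrophage markers were Apoe, for a lipid carrier (-0.63), the iron exporter Slc40a1 (-0.40) and Hmox1, for haem oxygenase (-1.66). Cd163, for the haemoglobin scavenger receptor of tissue macrophages, was at 18.7, 18.0 and 2.07 FPKM (-2.66) and Mrc1, for the mannose receptor, at 26.8, 25.9 and 4.24 FPKM (-2.38), while Adgre1, for F4/80, was at 26.4, 24.7 and 21.3 FPKM (-0.25). In bulk RNA, fewer cells of a type and less RNA per cell cannot be told apart, and the part of macrophage number in the C1q and Fcna values was not tested.

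All 12 erythroid markers were lower (median -2.81), with a summed FPKM of 20512, 13854 and 2357, led by Hba-a1, Hbb-bs and Hba-a2 of haemoglobin (-2.81, -2.88 and -2.82). All 4 B cell markers (of 8) that reached a mean FPKM of 1 were lower (median -1.94, summed FPKM over the 8 of 27.7, 35.1 and 4.38), led by Cd79a and Cd79b (-2.33 and -2.02). Of 12 stromal and endothelial markers, 5 reached a mean FPKM of 1 and 1, Stab2 (-1.16), was lower, and the summed FPKM was 11.2, 13.03 and 7.37. Pecam1 (0.03), Stab2 and Col1a1 (-0.15) were their most abundant genes. The erythroid sum also differed between the AAV-Ctrl libraries, where Fcna was nearly level and the C1q sum was slightly higher in AAV-Ctrl 2. Of the single erythroid markers, Klf1 (7.18 and 7.94 FPKM), Gata1 (3.83 and 4.12) and Epor (3.34 and 3.91) were also higher in AAV-Ctrl 2. The other erythroid markers were lower in AAV-Ctrl 2 than in AAV-Ctrl 1. The part of these cell types in the C1q and Fcna values was not tested.

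Monocyte markers did not follow this pattern. Of 10, 8 were tested, 0 were lower and 1, Cd14 (1.45), was higher, with a median of 0.29. Of the 8, 5 lay above both AAV-Ctrl libraries, 2 between them and 1, Irf8 (7.49, 7.89 and 4.66 FPKM, -0.62), below both. Their summed FPKM over the 10 was 1132, 1191 and 1278, mostly from Ly6c2 (1023, 1086 and 1145 FPKM, 0.12). Csf1r (-0.02) and Cd14 were the next most abundant. Dendritic cell markers reached a mean FPKM of 1 in 2 of 8 genes, Itgax (0.74) and Bst2 (0.25), and their sum was 25.7, 27.2 and 37.6 FPKM. Clec9a, the next most abundant, was at 0.71, 0.79 and 0.58 FPKM. Neutrophil markers had a median of -0.05 and a sum of 187274, 183770 and 177081 FPKM, led by S100a9 (-0.08), S100a8 (-0.05) and Ngp (-0.06).

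**Figure D4:**
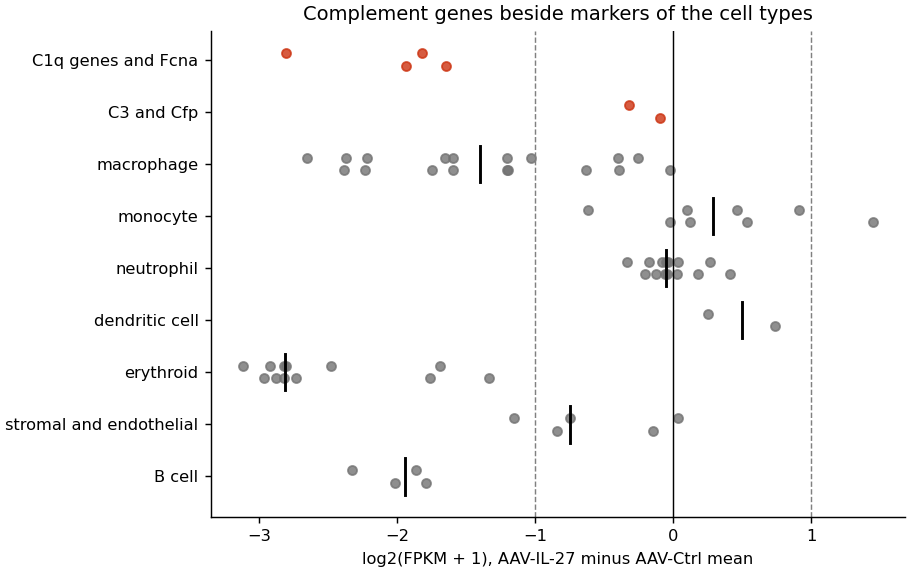
Difference in log2(FPKM + 1), AAV-IL-27 minus the AAV-Ctrl mean, for the complement genes (red) and for markers of each cell type (grey), 1 point per gene whose mean FPKM reached 1, with black bars at the median of each marker list. Fcna (-2.81) lies at the erythroid median and below every macrophage and B cell marker shown. The C1q genes (-1.94 to -1.65) lie within the macrophage and erythroid ranges, and C1qa and C1qc also within the B cell range. C3 and Cfp lie within the neutrophil, macrophage, monocyte, and stromal and endothelial ranges. The ranges of these lists overlap, so a place within one does not assign a gene to a cell type.

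The genes whose profile over the 3 libraries was most like the mean C1q profile, by Euclidean distance of centred log2(FPKM + 1) values among 6045 other genes whose mean FPKM reached 5, were Sdc3 (distance 0.036), Rrm2 (0.049), Slco2b1 (0.053), Blvrb (0.1005) and Slc29a1 (0.122). Sdc3, for a cell-surface proteoglycan, was at 27.2, 30.0 and 7.28 FPKM, and Rrm2, for a subunit of ribonucleotide reductase, was at 14.8, 15.3 and 3.54 FPKM. Fcna came 126th in that order, Cfp 461st and C3 1517th. With 3 libraries, likeness of this kind mostly restates a similar difference between AAV-IL-27 and AAV-Ctrl.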

How the data were processed

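mRNA was enriched with oligo-dT, and strand-marked libraries were sequenced by BGI and Oebiotech, named jointly in the methods. The authors deposited FPKM values with 2 decimals for 16073 rows keyed by NCBI Gene number, of which 1 without a symbol was left out. The processing notes name the build mm10, and the aligner and counting tool are not given in the sources used here. A column of per-sample values that matched no listed sample (1) was not used.

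Depth was fitted to low FPKM values of single-transcript genes (GENCODE M21 lengths of 200 to 1000 nt, less 70 nt, at most 5 fragments). In the libraries 76.8% to 81.8% of 223 to 247 such values lay within 0.2 of a whole fragment, and numbers of fragments are therefore approximate, with no test on counts. Poisson intervals (95%) are exact. The fold rule and the depth fit were run on simulated data with the same transcript lengths and Poisson counting error alone. Such data check the calculation and do not cover variation between mice.

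The members, lists and motifs were chosen with earlier results of these data known. Named were the 9 members, the other complement genes whose mean FPKM reached 1, the 3 most abundant markers of each list (1 B cell marker is not reported here) and the 5 genes most like C1q. Cd163, Mrc1, Adgre1, Ly6g, Mpo, Elane, Irf8, Klf1, Gata1, Epor and the genes named under 1 FPKM were picked after their values were seen. Alternatives covered the pseudocount, the filter, the threshold, the scaling and each AAV-Ctrl library. Software was Python 3.11.15 with scipy 1.17.1, pandas 2.3.3, numpy 2.4.6 and, for plots, matplotlib 3.10.9.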

Additional observations from a re-analysis of the deposited data

How the results depend on the processing

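C1qa, C1qb, C1qc and Fcna were the lower members under each alternative but the threshold of 2, which left 1, Fcna. Their differences ranged from -1.86 to -1.76, -1.70 to -1.59, -2.01 to -1.86 and -2.92 to -2.75. C3 and Cfp stayed negative (-0.11 to -0.03 and -0.38 to -0.26), as did C4b (-1.31 to -0.35), while Cfb (-0.32 to 0.14) and C3ar1 (-0.06 to 0.27) changed sign with the AAV-Ctrl library left out. Of 54 such values, 8 shifted further than the AAV-Ctrl SD, all with another pseudocount or scaling. Values with an AAV-Ctrl library left out could not do so, because that shift is always smaller than the SD. Without a filter the median over all 9 members was -0.49, since the low genes then entered.

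The 212 lower genes became 396 and 425 with pseudocounts of 0.1 and 0.01, 93 with a filter at 5 FPKM, 640 at a threshold of 0.5 and 39 at 2. The 28 higher genes became 46 with a pseudocount of 0.01, 143 at 0.5, 5 at 2, and 40 to 49 when either AAV-Ctrl library was left out, the former without AAV-Ctrl 1. For the other complement genes, 2 and 3 were lower with pseudocounts of 0.1 and 0.01, 3 at a threshold of 0.5, 1 (Clu) without AAV-Ctrl 1 and 0 when AAV-Ctrl 2 was dropped. Their median was -0.14 with either pseudocount, -0.044 with median ratios and -0.0031 with a filter at 5 FPKM. Rescaling shifted the all-gene median by 0.038 (equal totals) or 0.053 (median ratios). No paired analysis was run, because the labels tie no AAV-IL-27 library to an AAV-Ctrl library. Cfb and C3ar1 rested on under 40 estimated fragments in each library.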
